A study of Mus musculus with 47 samples.

Results

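Neurotrophins, their receptors and the granins are described here through 9 genes: the ligands Bdnf (brain-derived neurotrophic factor) and Ntf3 (neurotrophin 3), the receptors Ntrk2 (TrkB), Ntrk3 (TrkC), Ngfr (p75) and Sort1 (sortilin), and the granin family genes Vgf, Scg2 (secretogranin II) and Chgb (chromogranin B). The genes were chosen by name, with earlier results of these data known, and looked up by Ensembl mouse gene ID. All 9 were found in both count tables, which hold 35032 gene IDs together. RNA-seq of poly(A) RNA was done on brainstem (the medulla) and on the whole hippocampus of male C57BL/6 mice at 12 months of age. The transgenic mice (TG) carried human h[A30P] alpha-synuclein under the Thy1 promoter, which is active in neurons of the central nervous system, and were kept as a homozygous colony, while the wild-type mice (WT) came from the same outcross and were kept as a parallel colony. Mice of each genotype received a standard diet (SD) or a high-fat diet (HFD) from 5 weeks of age, which gave the groups WT_SD, WT_HFD, TG_SD and TG_HFD, with 6 libraries per group and region, except WT_SD in brainstem with 5. Because each genotype was its own colony, the transgene and other differences between the colonies cannot be told apart.

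The 47 libraries held 10020784 to 17328447 counts each. Thy1, whose promoter drives the transgene, checked the genotype labels: its level was 475 to 610 CPM (library-scaled counts, with TMM factors) in the WT libraries and 6346 to 9133 CPM in the TG libraries, without overlap. Markers of the dissected regions were in place: summed markers of hippocampal pyramidal and granule cells had 158 to 224 CPM in brainstem and 1048 to 1324 CPM in hippocampus, and summed medulla neuron markers had 316 to 535 CPM in brainstem and at most 0.878 CPM in hippocampus. Summed choroid plexus markers ranged from 13.8 to 2968 CPM between brainstem libraries, in every group, and their correlation within groups with the 8 members tested there ran from -0.15 (Vgf) to 0.30 (Ntrk2). The labels do not say which brainstem and hippocampus libraries came from the same mouse.

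Mature neurotrophins act as secreted dimers on Trk receptor tyrosine kinases, BDNF mainly on TrkB and neurotrophin 3 mainly on TrkC, while their uncleaved precursors bind p75 together with sortilin. Sortilin also sorts the BDNF precursor into the regulated secretory pathway. Granins are acidic proteins of dense core vesicles, the organelles that store and release BDNF and neuropeptides, and VGF is cleaved into several bioactive peptides. Transcription of Bdnf, Vgf and Scg2 is known to follow neuronal activity and the factor CREB. The members differed between the regions, while none was called between genotypes or diets in the model with surrogate variables.

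RefSeq promoters of the members were searched for the CREB-type motif TGACGTCA, which is its own reverse complement. Those that hold it or its core CGTCA are shown (250 bases before the start, build GRCm38.p6, with the motif in capitals). Promoters were matched for 6 of the 9 members (Bdnf with 7, Ntf3 with 2, and Ngfr, Ntrk2, Scg2 and Chgb with 1 each), and none for Vgf, Ntrk3 or Sort1. The promoters of the matched granins, Scg2 and Chgb, held the whole motif, which 1.55% of all 32851 promoters in the table held in the same window. The shorter core CGTCA, on either strand, was in 17.8% of all promoters and in 1 of the 7 of Bdnf, and no motif was found in these windows of Ntf3, Ngfr or Ntrk2. A match describes the letters and is no evidence of binding.
Scg2, chr1:79440027-79440276, minus strand, motif beginning 68 bases before the start: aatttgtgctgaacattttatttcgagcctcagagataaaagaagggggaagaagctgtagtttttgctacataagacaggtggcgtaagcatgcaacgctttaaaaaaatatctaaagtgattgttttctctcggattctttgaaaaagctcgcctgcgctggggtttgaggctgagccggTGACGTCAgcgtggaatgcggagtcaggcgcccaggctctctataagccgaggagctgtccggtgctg
Chgb, chr2:132781392-132781641, plus strand, motif beginning 72 bases before the start: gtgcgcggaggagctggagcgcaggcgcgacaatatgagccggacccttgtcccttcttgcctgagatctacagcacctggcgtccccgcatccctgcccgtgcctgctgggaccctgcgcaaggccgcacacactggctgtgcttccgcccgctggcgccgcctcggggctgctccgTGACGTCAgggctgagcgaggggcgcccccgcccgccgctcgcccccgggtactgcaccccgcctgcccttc
Bdnf, chr2:109692186-109692435, plus strand, 1 of its 7 promoters: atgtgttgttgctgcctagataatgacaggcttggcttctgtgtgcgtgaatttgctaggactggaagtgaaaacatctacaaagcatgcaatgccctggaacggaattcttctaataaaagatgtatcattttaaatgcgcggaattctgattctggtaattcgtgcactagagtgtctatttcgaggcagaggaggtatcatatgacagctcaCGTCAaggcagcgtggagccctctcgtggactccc

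Per kilobase of exon, Scg2 led in brainstem and Chgb in hippocampus. The lengths join all annotated exons of a gene. This can place genes with several transcripts too low, such as Ntrk3 (30170 bases) and Ntrk2 (19292 bases), and the order depends on it. In brainstem the order of mean levels over 23 libraries was Scg2 (166 ± 13.8 CPM per kilobase, SD), Chgb (88.5 ± 8.23), Sort1 (40.8 ± 3.21), Ntrk2 (23 ± 1.81), Vgf (15.7 ± 3.43), Ntrk3 (3.0 ± 0.315), Ngfr (2.08 ± 0.432), Bdnf (1.26 ± 0.165) and Ntf3 (0.243 ± 0.144). In hippocampus, over 24 libraries, it was Chgb (178 ± 13.3), Sort1 (99.7 ± 5.58), Scg2 (87.2 ± 4.75), Ntrk2 (28.1 ± 1.42), Vgf (25.9 ± 4.26), Bdnf (7.19 ± 0.563), Ntrk3 (6.55 ± 0.921), Ntf3 (4.18 ± 0.683) and Ngfr (0.418 ± 0.0952). Neighbours whose libraries overlapped were Ntrk2 with Vgf and Ntrk3 with Ngfr in brainstem, and Sort1 with Scg2, Ntrk2 with Vgf, Bdnf with Ntrk3 and Ntrk3 with Ntf3 in hippocampus. The granins and sortilin thus stood above the ligands in both regions. Per kilobase, Ngfr moved from above both ligands in brainstem to the lowest place in hippocampus. In CPM without the length, Ngfr lay below Bdnf in brainstem (means of 7.18 and 7.85).

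**Figure D1:**
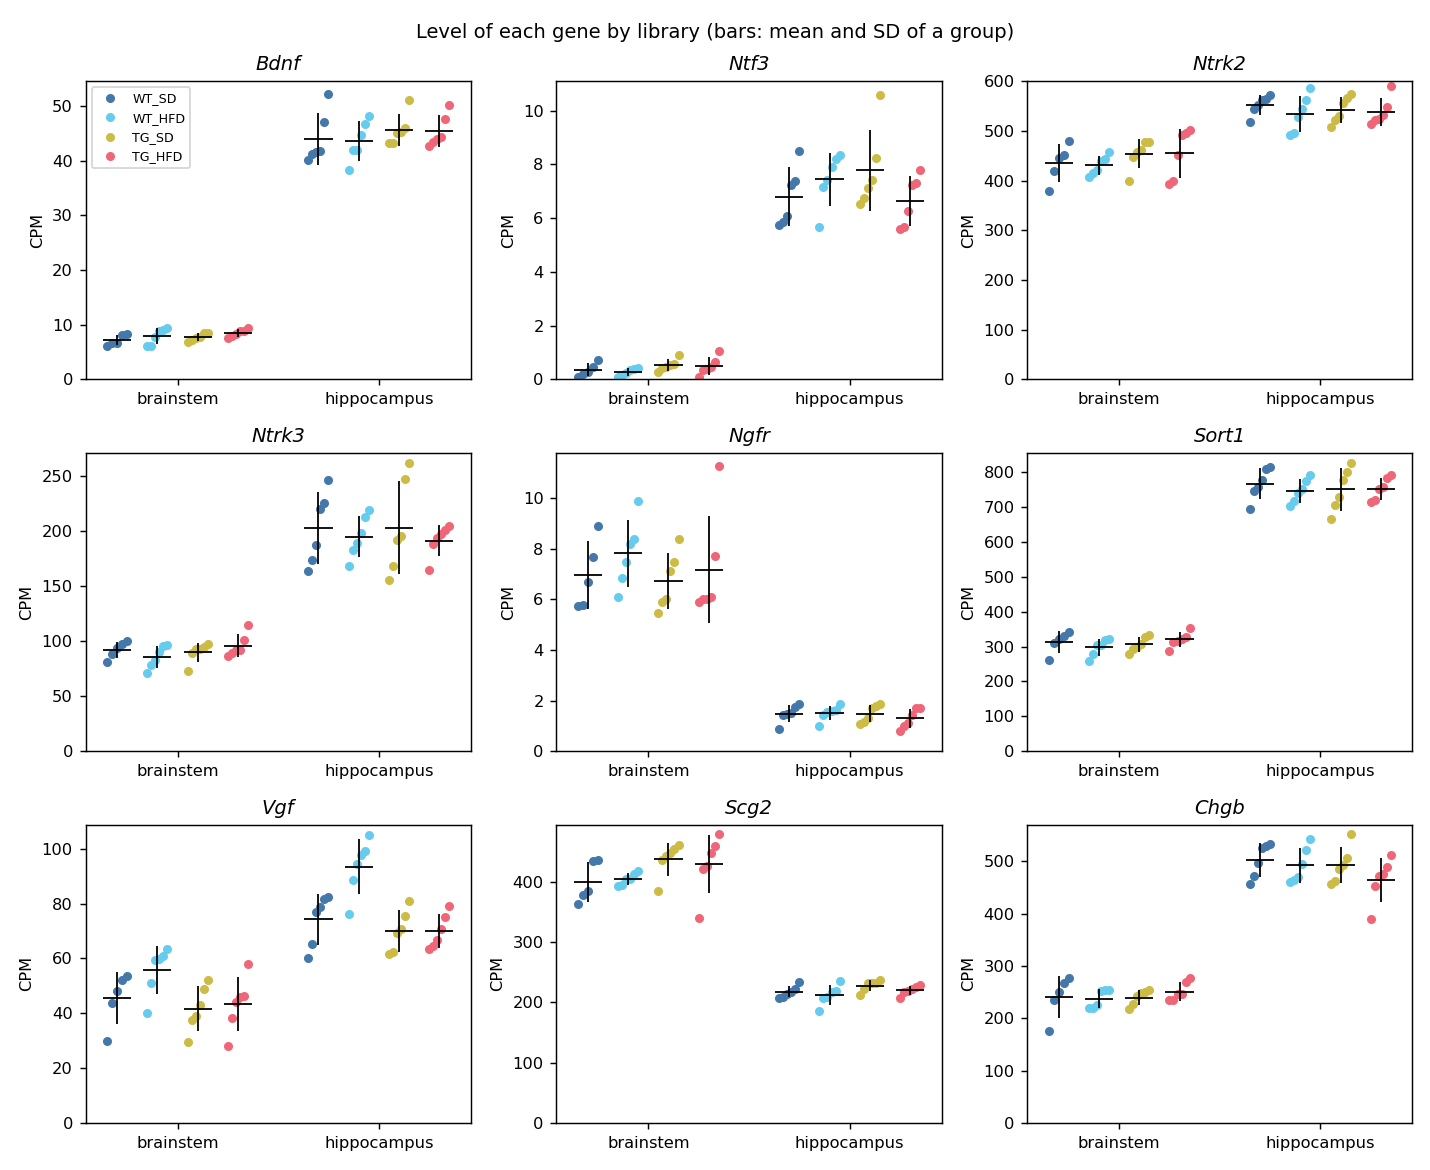
Level of each of the 9 genes in CPM (y axis, linear from 0) in every library (points, in ascending order within a group), by region and group, with the mean as a horizontal and the SD as a vertical bar. Within each group the regions separate for each gene, and over all libraries Ntrk2 and Vgf overlap between the regions while the other 7 do not, for example Bdnf at 6.11 to 9.34 CPM in brainstem and 38.3 to 52.3 CPM in hippocampus, while the 4 groups of a region overlap.

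The first comparison asked how the members differ between the regions within each genotype and diet. In WT_SD, edgeR's quasi-likelihood test called all 9 members, 7 higher in hippocampus and 2 lower, where a call needed an adjusted p (Benjamini-Hochberg) not above 0.05 together with a log2 fold change beyond 0.3 in either direction. That call covered 59.6% of the 13462 genes tested (28.9% higher and 30.6% lower), so the count alone sets the members little apart. With a log2 threshold of 1 in either direction, 6 members were called against 18.5% of all genes, and the median absolute log2 fold change was 1.14 over the members and 0.40 over all genes. These counts and the median include Ntf3 and Ngfr, which passed the count filter only through the region where they were higher, so the filter favoured their direction. The CPM of the WT_SD libraries of both regions did not overlap for any of the 9 members, which was true of 53.3% of all genes. Fewer cells of a type and less RNA per cell cannot be told apart in such bulk samples.

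Both ligands were higher in hippocampus. Bdnf had 6.16, 6.69, 6.70, 8.07 and 8.38 CPM in the brainstem WT_SD libraries and 40.1 to 52.3 CPM (median 41.7) in hippocampus. Every hippocampus library lay several times above every brainstem library, and the log2 fold change was 2.60 (SE 0.0927, edgeR adjusted p = 2.86e-29). Ntf3, which supports sensory and hippocampal granule neurons in development, had only 0.0971, 0.207, 0.281, 0.469 and 0.729 CPM in brainstem, where libraries of all groups held 1 to 13 counts, so it passed the filter through hippocampus. In hippocampus it had 5.73 to 8.49 CPM (median 6.65), and its difference of 4.2 on the log2 scale (SE 0.256, adjusted p = 5.9e-20) was the largest of the 9. Bdnf and Sort1 overlap antisense genes (Gm45346 and Gm12523), whose reads cannot be told apart from theirs where counting ignores the strand. The region contrasts of Bdnf were 2.47, 2.56 and 2.43 in WT_HFD, TG_SD and TG_HFD, and for Ntf3 they were 4.69, 3.86 and 3.71.

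The receptors went in both directions. Ntrk2, whose truncated form is abundant in astrocytes, differed least: it had 380.0 to 479 CPM in brainstem and 518 to 573 CPM in hippocampus, which gave 0.34 on the log2 scale (SE 0.0605, adjusted p = 2.01e-06). With 0.31 in WT_HFD, 0.26 in TG_SD and 0.24 in TG_HFD, it passed the fold threshold only in the WT groups, and the difference between those contrasts was itself not called. Leaving out 1 library took Ntrk2 below the fold threshold in WT_SD without brainstem WT_SD replicate 6 (0.298), and in WT_HFD without brainstem WT_HFD replicate 1 (0.295), hippocampus WT_HFD replicate 4 (0.297) or hippocampus WT_HFD replicate 6 (0.278). With the replicate number as a block across regions Ntrk2 was 0.27 in WT_HFD and not called, and with no filter on low counts it was called in all 4 groups, at 0.36 in TG_SD and 0.32 in TG_HFD. Ntrk3 differed by 1.14 on the log2 scale (SE 0.107, adjusted p = 2.61e-13), from 80.7 to 99.6 CPM in brainstem and 163 to 246 CPM in hippocampus. Sort1 varied little across groups, with 1.30 (SE 0.0642, adjusted p = 1.63e-23) in WT_SD and 1.33, 1.30 and 1.23 in WT_HFD, TG_SD and TG_HFD. Ngfr went the other way. It had 5.72, 5.77, 6.70, 7.67 and 8.91 CPM in brainstem and 0.878 to 1.85 CPM (median 1.5) in hippocampus, where libraries of all groups held 12 to 28 counts. Ngfr thus passed the filter through brainstem. Its mean was 4.68 times higher in brainstem, and the log2 fold change was -2.21 (SE 0.189, adjusted p = 1.08e-14).

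The granins were split as well. Scg2 was higher in brainstem, with 363 to 435 CPM there and 208 to 233 CPM in hippocampus (log2 fold change -0.88, SE 0.0598, adjusted p = 3.56e-18). Chgb was higher in hippocampus, with 456 to 533 CPM against 176 to 278 CPM (log2 fold change 1.06, SE 0.077, adjusted p = 3.81e-17). These genes, whose promoters share the whole motif shown above, therefore differed between the regions in opposite directions. Vgf had 29.98, 43.6, 48.1, 52.1 and 53.4 CPM in brainstem and 60.0 to 82.5 CPM (median 77.9) in hippocampus, which gave 0.71 on the log2 scale (SE 0.134, adjusted p = 7.43e-06). With an offset that removes each library's trend with GC content, Vgf was at 0.14 (SE 0.0641, adjusted p = 0.0414) and no longer passed the fold threshold, whereas the other 8 members kept their calls in WT_SD.

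**Figure D2:**
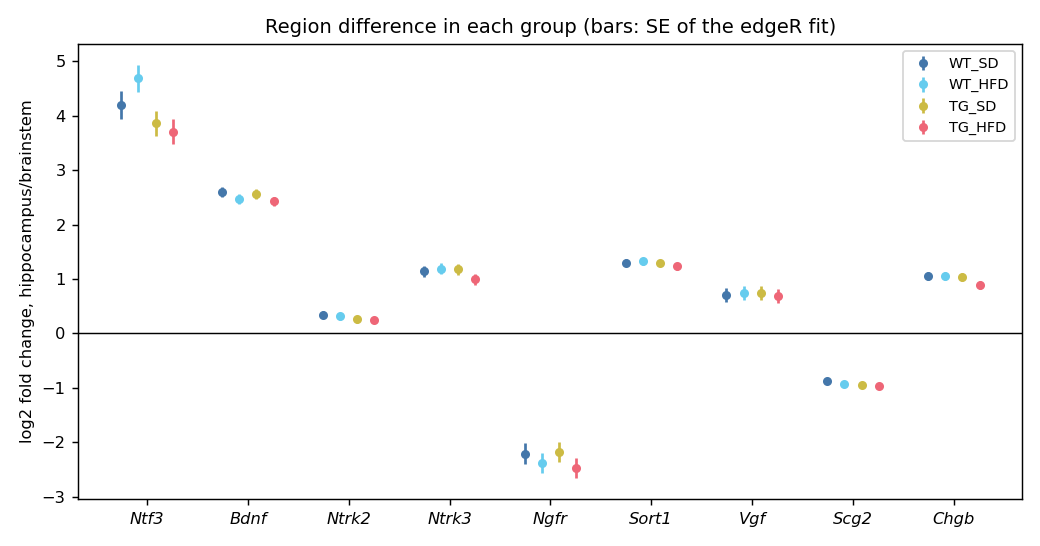
Log2 fold change hippocampus/brainstem (y axis) of each gene (x axis) in the 4 groups (colours), with bars for the SE of the edgeR fit over 47 libraries. Ntf3 (4.2 in WT_SD) and Bdnf (2.60) stand highest, Scg2 (-0.88) and Ngfr (-2.21) lie below 0, and the groups lie widest apart for Ntf3, from 3.71 in TG_HFD to 4.69 in WT_HFD.

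In WT_HFD 9 members were called (61.5% of all genes, 29.9% higher and 31.6% lower), in TG_SD 8 (60.8%, 29.3% higher and 31.6% lower) and in TG_HFD 8 (58.6%, 28.3% higher and 30.3% lower), each time 2 of them lower. These counts again include Ntf3 and Ngfr, which passed the count filter through 1 region. With the GC offset Vgf fell below the fold threshold in these groups too, at 0.17 in WT_HFD, 0.13 in TG_SD and 0.18 in TG_HFD. With the log2 threshold of 1, 6 were called in WT_HFD and in TG_SD (18.9% of all genes in each) and 4 in TG_HFD (18.2%). The regions' libraries did not overlap for any member in these groups either, which was true of 55.7%, 52.3% and 51.5% of all genes in WT_HFD, TG_SD and TG_HFD. Genotype or diet contrasts that differ between the regions were tested as interactions, and 0 of the 9 members were called for TG_SD/WT_SD and TG_HFD/WT_HFD (0.00743% of all genes each) and for both diet contrasts (0%), by edgeR or DESeq2. At an unadjusted p of at most 0.05 there was 1, Ntf3 for TG_HFD/WT_HFD, with a log2 difference of -0.98 (SE 0.425, adjusted p = 0.857) that rests on the 1 to 13 counts per brainstem library. Cell composition moved with the regions: all 8 oligodendrocyte markers were lower in hippocampus, with a median log2 fold change of -2.06, and summed cholinergic and motor neuron markers had 113 to 182 CPM in brainstem and at most 2.06 CPM in hippocampus, and the part of these cells in the members' differences was not tested.

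Genes that handle or answer these members are read against the share of all genes called in WT_SD, 59.6% (28.9% higher and 30.6% lower). The lists of such genes were chosen with earlier results of these data known, so their counts are a description. Among sorting receptors, p75 partners and proteases, 8 of 18 tested genes were higher and 2 lower, led by Rtn4r (log2 fold change 4.03) and Lingo1 (2.49), which form a receptor with p75, Sorcs1 (-1.76) and the protease Pcsk5 (1.57). In Trk signalling 16 of 40 were higher and 9 lower, led by Crtc1 (2.34) and Camk4 (1.72), which act on CREB, and the kinase Map2k1 (1.51). Counted in either direction, these shares lie near the 59.6% of all genes. By direction they differ, since higher calls outnumbered lower ones in both lists and not in all genes. Of 6 other granins and granin-like genes 1 was higher and 3 lower, among them Resp18 (-2.30), Gnas (-1.92), whose locus encodes a granin-like protein besides a G protein subunit, Chga (-1.43) and Pcsk1n (0.92).

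Genes for processing and release of dense core vesicle cargo gave 10 of 18 higher and 6 lower (28.9% and 30.6% of all genes), led by Baiap3 (-2.78), the vesicular monoamine transporter Slc18a2 (-2.47), Cadps2 (1.91) and Cpe (1.36), the carboxypeptidase that trims peptide precursors. Of 24 activity-regulated neuronal genes 18 were higher and 5 lower, beside the same shares of all genes, led by Egr3 (6.00), Nr4a3 (4.63), the neuropeptide gene Cck (4.19) and Nr4a2 (3.07). The median log2 fold change was 1.82 for the activity-regulated list and -0.02 for all genes. Egr3 had a mean of 1.09 CPM in brainstem WT_SD and 71.9 CPM in hippocampus WT_SD. It passed the filter through hippocampus, which favoured its direction, and the list's count and median include it.

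The second comparison asked whether genotype or diet changed the members within a region. With 4 surrogate variables in each region (variables estimated from the counts that stand for unwanted variation), edgeR called 0 of the 8 tested members in each of the 10 contrasts, as did DESeq2 with these variables. The share of all genes called was 0.142% for TG_SD/WT_SD, 0.0525% for TG_HFD/WT_HFD, 0% for WT_HFD/WT_SD and 0.0075% for TG_HFD/TG_SD and for the interaction in brainstem. In hippocampus it was 0.098%, 0.226%, 0%, 0% and 0%, in that order. Ntf3 in brainstem and Ngfr in hippocampus had a mean under 50 counts and were not tested. Over the 80 member tests, log2 fold changes lay between -0.39 and 0.25 with SEs of 0.0292 to 0.204, and 6 had an unadjusted p of at most 0.05, all in hippocampus. By contrast, in the order above, these were 1, 1, 1, 2 and 1 of the 8 tested members. Such a p was found for 10.5%, 5.59%, 5.43%, 6.91% and 4.83% of all genes in the 5 brainstem contrasts and for 9.08%, 11.3%, 6.41%, 7.08% and 5.98% in those of hippocampus, in the order above. No pair of groups was free of overlap for any tested member, where, for the first 4 contrasts in the same order, 0.532%, 0.682%, 0.427% and 0.172% of all genes were in brainstem and 0.264%, 4.15%, 0.467% and 0.0226% in hippocampus.

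**Figure D3:**
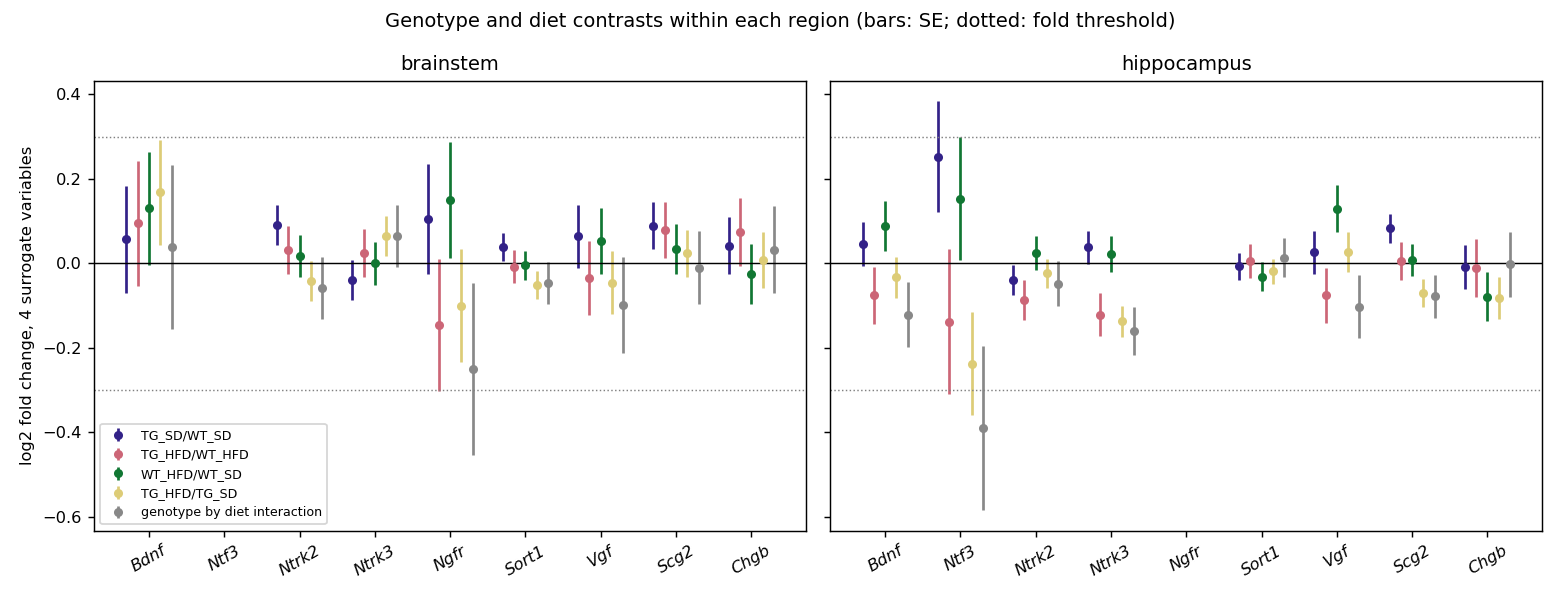
Log2 fold changes (y axis) of each gene for the 5 genotype and diet contrasts (colours) in brainstem (left) and hippocampus (right), with SE bars from edgeR with 4 surrogate variables and the fold threshold of 0.3 as dotted lines. Ntf3 (brainstem) and Ngfr (hippocampus) have no points because they were not tested, and the widest departure from 0 is the interaction of Ntf3 in hippocampus at -0.39.

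The ligands showed no called difference. In hippocampus Bdnf had 40.1 to 52.3 CPM in WT_SD (median 41.7), 38.3 to 48.2 in WT_HFD (43.3), 43.2 to 51.2 in TG_SD (45.2) and 42.7 to 50.3 in TG_HFD (44.2). The groups overlapped throughout, and log2 fold changes ran from -0.12 for the interaction to 0.09 for WT_HFD/WT_SD. In brainstem the largest value of Bdnf was 0.17 (SE 0.125, adjusted p = 0.845) for TG_HFD/TG_SD. Ntf3 in hippocampus had 5.73 to 8.49 CPM in WT_SD (median 6.65), 5.66 to 8.35 in WT_HFD (7.66), 6.53 to 10.6 in TG_SD (7.27) and 5.59 to 7.80 in TG_HFD (6.74). Its diet contrast was 0.15 (SE 0.146) in WT and -0.24 (SE 0.122) in TG, and the interaction of -0.39 (SE 0.194) had an unadjusted p of 0.0531 and an edgeR adjusted p of 0.834.

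Among the receptors, Ntrk3 in hippocampus had the lowest p of all member tests. Its level was 163 to 246 CPM in WT_SD (median 203), 168 to 219 in WT_HFD (193), 155 to 261 in TG_SD (193) and 164 to 204 in TG_HFD (195). The groups overlapped, and TG_SD spread most. With 4 surrogate variables TG_HFD/TG_SD was -0.14 (SE 0.0364, unadjusted p = 0.000662, edgeR adjusted p = 0.3), and without them it was -0.09 (SE 0.103). The levels of Ntrk3 within groups moved with the summed hippocampal pyramidal and granule cell markers (r = 0.82 over 24 libraries) and against the microglia markers (r = -0.79). They also moved with Schwann cell markers in hippocampus (r = 0.63) and with the same pyramidal and granule cell list in brainstem (r = 0.67). The part of the dissection or of these cells was not tested. Ntrk2 moved with astrocyte markers in hippocampus (r = 0.76). Sort1 moved with neuron markers in hippocampus (r = 0.79) and, in brainstem, with medulla neuron and with cholinergic and motor neuron markers (r = 0.79 each). All these values share their libraries and depth. The log2 fold changes of Ntrk2 lay between -0.09 and 0.09 and those of Sort1 between -0.05 and 0.04 in all 10 contrasts, with SEs of at most 0.0733.

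Ngfr was the most uneven receptor in brainstem. It had 5.72 to 8.91 CPM in WT_SD (median 6.70), 6.09 to 9.87 in WT_HFD (7.84), 5.46 to 8.40 in TG_SD (6.57) and 5.91 to 11.3 in TG_HFD (6.06), where replicate 8 alone stood above 7.70 CPM. Its biological coefficient of variation without surrogate variables was 0.173, at percentile 94.0 of all tested genes, and its interaction was -0.25 (SE 0.204, adjusted p = 0.993). Within groups it moved with the summed ependyma markers (r = 0.63 over 23 libraries), the library GC slope (r = 0.53) and the medulla neuron markers (r = 0.41), whereas r was -0.26 with Schwann cell and -0.22 with meningeal markers. The part of these cells and of the slope was not tested. In hippocampus Ngfr had group means of 1.30 to 1.51 CPM, from at most 28 counts per library. A filter that kept it (a total of at least 50 counts) gave log2 fold changes of -0.18 (SE 0.295) for TG_HFD/WT_HFD and -0.03 (SE 0.236) for TG_SD/WT_SD.

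Scg2 and Chgb were the steadiest granins. Scg2 in hippocampus had an unadjusted p of 0.0212 for TG_SD/WT_SD (log2 fold change 0.08, SE 0.0344, edgeR adjusted p = 0.433) and of 0.0381 for TG_HFD/TG_SD (-0.07, SE 0.0324, edgeR adjusted p = 0.674). Both contrasts share the TG_SD libraries. In brainstem Scg2 was 0.09 (SE 0.0551) for TG_SD/WT_SD. Chgb had no unadjusted p under 0.05, and its log2 fold changes lay between -0.08 and 0.07 in all 10 contrasts.

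Vgf was the member whose call depended on the model. In hippocampus it had 60.0 to 82.5 CPM in WT_SD (median 77.9), 76.0 to 105 in WT_HFD (96.1), 61.5 to 81.1 in TG_SD (69.9) and 63.3 to 79.1 in TG_HFD (68.7). Of the WT_HFD libraries 5 of 6 lay above every other hippocampus library, and the lowest, at 76.0 CPM, lay within the range of TG_HFD. In brainstem the medians were 48.1, 59.7, 41.1 and 45.0 CPM in the same order, again highest in WT_HFD. With 4 surrogate variables Vgf was not called for TG_HFD/WT_HFD in hippocampus (log2 fold change -0.08, SE 0.0652, edgeR adjusted p = 0.714). Without surrogate variables it was called (-0.41, SE 0.0839, edgeR adjusted p = 0.00399), in a model that called 3.88% of all genes.

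The value was called with 1 (-0.41, adjusted p = 0.000995) and 2 surrogate variables (-0.41, adjusted p = 0.000913) and not with 3 (-0.14, adjusted p = 0.374). In WT_HFD/WT_SD it was 0.13 (SE 0.0549, adjusted p = 0.722) with 4 and 0.33 (SE 0.0839, adjusted p = 0.169) with 0 surrogate variables. In brainstem TG_HFD/WT_HFD was -0.03 (SE 0.0878) with 4 and -0.36 (SE 0.152, adjusted p = 0.202) with 0. The first of the 4 surrogate variables correlated with Vgf over all libraries of a region at r = 0.79 in hippocampus and -0.93 in brainstem. A model that holds this variable can also take up a group difference of Vgf, and whether it did was not tested. GC content moved with these values: 64.1% of the longest Vgf transcript is G or C, and within groups its level followed the GC slope of the library, the slope of a library's log2 deviations on GC content, with r = 0.93 in brainstem (23 libraries) and r = 0.84 in hippocampus (24 libraries). These correlations lay at percentiles 99.1 and 98.2 of all tested genes in absolute size. The mean GC slope, in log2 units per 10% of GC content, was highest in WT_HFD of both regions, at 0.114 ± 0.0654 in brainstem and 0.0958 ± 0.0737 in hippocampus (SD, n = 6 each), against -0.0395 ± 0.159 and -0.0546 ± 0.0472 in TG_HFD.

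With a GC offset in place of surrogate variables, Vgf for TG_HFD/WT_HFD was -0.02 (SE 0.0463, adjusted p = 0.873) in hippocampus and -0.05 (SE 0.0734, adjusted p = 0.812) in brainstem. For WT_HFD/WT_SD in hippocampus that model gave 0.08 (SE 0.0464, adjusted p = 0.922). Whether the slope itself arose in the tissue or in the preparation of the libraries was not tested.

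**Figure D4:**
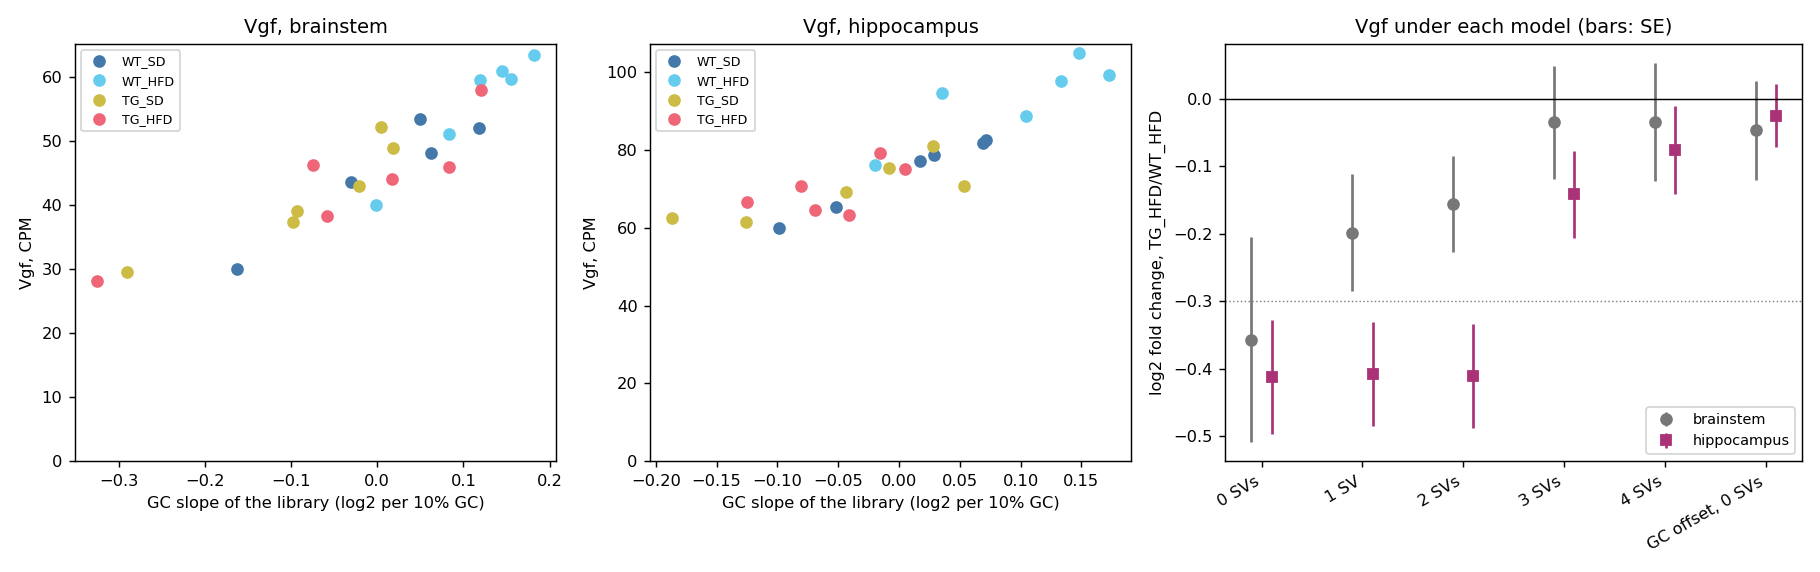
Left and middle, Vgf level in CPM (y axis) against the GC slope of each library (x axis, log2 per 10% GC) in brainstem and hippocampus, with a point per library coloured by group. Right, the log2 fold change TG_HFD/WT_HFD of Vgf with its SE under 0 to 4 surrogate variables (SVs) and with a GC offset, which goes from -0.41 without surrogate variables to -0.08 with 4 and -0.02 with the offset in hippocampus.

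Single genes of granin biology and activity did pass the test in the contrast where Vgf was high in WT_HFD. Their lists were chosen with earlier results of these data known, so the counts beside the share of all genes are a description. In hippocampus TG_HFD/WT_HFD with 4 surrogate variables, 1 of 6 other granin-like genes (Pcsk1n, lower) and 2 of 26 activity-regulated genes (Nptx2 and Egr3, lower) were called, against 0.226% of all genes in either direction and 0.173% lower, while 0 of 18 sorting and protease genes, 0 of 40 Trk signalling genes and 0 of 19 vesicle cargo genes were. Without surrogate variables these lists gave other counts: Resp18 was called higher beside Pcsk1n, 6 activity-regulated genes were called lower (Arc, Junb, Egr4, Nr4a1, Nptx2 and Penk), as were 3 sorting genes (Furin, Rtn4r and Lingo1) and 2 Trk signalling genes (Frs3 and Map2k2), in the model that called 3.88% of all genes in either direction. With the GC offset Resp18 was called higher and Pcsk1n lower, 3 activity-regulated genes were lower (Junb, Nptx2 and Penk) and 0 of the sorting and Trk signalling genes were called. That model called 96 of all 13272 genes in either direction. With 4 surrogate variables the median log2 fold changes of the granin-like and activity-regulated genes were 0.09 and -0.11. Pcsk1n, which encodes proSAAS, an inhibitor of the prohormone convertase PC1, had 24.4 to 58.5 CPM in WT_SD (median 48.0), 50.6 to 124 in WT_HFD (85.1), 17 to 47.8 in TG_SD (35.2) and 19.1 to 34.4 in TG_HFD (median 30). The WT_HFD and TG_HFD libraries did not overlap for Pcsk1n, which was true of 4.15% of all genes. Its log2 fold change was -0.56 (SE 0.114, edgeR adjusted p = 0.0188) with 4 surrogate variables, -1.62 (SE 0.238, adjusted p = 0.000301) without them and -1.46 (SE 0.207, adjusted p = 0.000297) with the GC offset. Within groups Pcsk1n followed the GC slope of the library at r = 0.90, and the part of the slope in its difference was not tested.

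Nptx2, a secreted synaptic pentraxin, had 18.5 to 21.6 CPM in WT_HFD and 12.6 to 15 in TG_HFD, and its log2 fold change was -0.49 (SE 0.097, edgeR adjusted p = 0.0158) with 4 surrogate variables and -0.38 (SE 0.072, adjusted p = 0.00685) with the GC offset. Egr3, an activity-induced transcription factor, had 78.4 to 86.6 CPM in WT_HFD and 62.1 to 72.8 in TG_HFD (-0.30, SE 0.063, edgeR adjusted p = 0.0191). Egr3 lies at the fold threshold, and with the GC offset it was -0.28 and not called. Leaving out 1 library at a time with 4 surrogate variables ended the call of Pcsk1n in 2 of 24 fits (without TG_SD replicate 3 at -0.51, adjusted p = 0.0944, and without TG_HFD replicate 8 at -0.51, adjusted p = 0.12), and of Nptx2 in 1 (without WT_SD replicate 3 at -0.41, adjusted p = 0.0904). Without WT_HFD replicate 8 Pcsk1n moved to -0.98 (adjusted p = 0.000113). Egr3 lost its call in 5 fits, without TG_SD replicate 3 or 7, TG_HFD replicate 8, WT_SD replicate 7 or WT_HFD replicate 7, at -0.29 to -0.26.

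In the other 9 contrasts within regions 0 genes of these pathway lists were called with 4 surrogate variables. Of the marker lists, the endothelial Cldn5 and the fibroblast marker Myoc were called higher in brainstem TG_SD/WT_SD, 1 of 5 and 1 of 4 tested genes of their lists, against 0.142% of all genes. Cldn5 overlapped, at 17.5 to 32.4 CPM in TG_SD and 18.1 to 24.3 in WT_SD. Myoc had 9.68 to 12.3 CPM in TG_SD and 4.86 to 6.97 in WT_SD. The model with 4 surrogate variables called 19 genes in this contrast, and those with 0 or the GC offset called 4 each. The part of these cells in that contrast was not tested.

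The genes whose levels were most like a member's within groups were read as a description, since libraries share depth, GC slope and dissection. For Vgf they were Igsf8 (r = 0.92), Pcsk1n (0.90) and Scrt1 (0.90) in hippocampus and Rtl8b (0.94), Rtl8a (0.94) and Efhd2 (0.94) in brainstem, each of which followed the GC slope at r of 0.90 to 0.98. For Ngfr in brainstem they were Kcng4 (0.89), Cyp2s1 (0.86) and Cerk (0.84), which followed the GC slope at r of 0.57 to 0.79. Ntrk2 was nearest to Ep400 (0.90), Xylt1 (0.89) and Arhgef12 (0.87) in brainstem and to Pcnp (0.81), the astrocyte glutamate transporter gene Slc1a2 (0.81) and the bicarbonate transporter gene Slc4a4 (0.80) in hippocampus. Bdnf had no neighbour above 0.76, with Tiprl (0.75), Gm26822 (0.73) and Fam19a1 (0.73) in brainstem and Arf3 (0.76), AC168306.1 (0.74) and Rbm15b (0.72) in hippocampus. Between members, the highest and lowest values were 0.61 for Ngfr with Sort1 and -0.76 for Ngfr with Scg2 in brainstem, and 0.68 for Ntrk3 with Sort1 and -0.47 for Ntrk3 with Vgf in hippocampus.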

How the data were processed

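Poly(A) RNA of 23 brainstem and 24 hippocampus samples was sequenced as single-end reads. The authors aligned the reads to the Ensembl v104 mouse genome with the transgene added, and the submitters' processing notes name STAR 2.7.9a, FastQC 0.11.9 and DESeq2 1.32.0. The deposited values are raw counts per gene, 1 table per region, and the counter and its strand setting are not given in the sources used here. The authors left out 1 brainstem WT_SD sample for its RNA integrity.

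Groups came from the sample labels. The members and gene lists were chosen with earlier results of these data known. Within a region, genes whose mean count reached 50 (13340 in brainstem, 13272 in hippocampus) were tested with edgeR 4.0.16 (quasi-likelihood, TMM) in 1 model of 4 groups with 4 surrogate variables from sva 3.50.0, as many as its permutation method estimated. Regions were compared in 1 edgeR model of 8 groups without surrogate variables (13462 genes). A call needed an adjusted p (Benjamini-Hochberg) not above 0.05 together with a log2 fold change beyond 0.3 in either direction. Alternatives were DESeq2 1.42.0, other filters, other numbers of surrogate variables, a GC offset, a replicate block and leaving out each library. Fits with 0 surrogate variables in DESeq2, without the fold threshold or without single libraries were added after seeing the data. Levels are CPM with TMM factors over all 47 libraries, and levels per kilobase use the joined length of all exons of a gene in GENCODE M21. Symbols were matched for 34400 of 35032 IDs. Genes named as most like a member were those with the highest correlation of log2 levels within groups. The tests were tested on simulated data. The paper gives 6 animals per group and region, while the labels themselves say only that replicates of a group are separate samples. Results of some listed genes are not reported here.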

Additional observations from a re-analysis of the deposited data

Results flagged for a closer look

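In 4 of the 72 gene, region and group combinations of the 9 members, 1 library stood apart from the others of its group by Dixon's test at the 95% level, which chance gives in about 1 of 20 groups. Bdnf was 51.2 CPM in hippocampus TG_SD replicate 3, with the others at 43.2 to 46.1 CPM. Ntrk3 was 72.7 CPM in brainstem TG_SD replicate 7, with the others at 88.6 to 96.9 CPM, and Scg2 was 384 CPM in the same library, with the others at 435 to 460 CPM. Ngfr was 11.3 CPM in brainstem TG_HFD replicate 8, with the others at 5.91 to 7.70 CPM.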

How the results depend on the processing

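With 4 surrogate variables 0 members were called within regions. In hippocampus TG_HFD/WT_HFD it was 1, Vgf, with 0, 1 or 2 surrogate variables, with DESeq2, without the fold threshold and with only the groups of the contrast (each with 0 surrogate variables), and it was 1 in WT_HFD/WT_SD with 2 surrogate variables. When 1 library was left out it ranged from 0 to 1 in these contrasts. That range pools fits with 4 and with 0 surrogate variables, so it does not separate the library from the model. Between regions, 4 members were called in TG_HFD with a log2 threshold of 1 in either direction. All genes called in hippocampus TG_HFD/WT_HFD numbered 30 with 4 surrogate variables, 515, 614, 634 and 28 with 0, 1, 2 and 3, and 96 with the GC offset.

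Replicate numbers were not taken to pair the samples: same-numbered libraries of different groups correlated at a median r of 0.0392 in brainstem (10 of 26 pairs over 0.1) and 0.0651 in hippocampus (15 of 36). Across regions, with genotype and diet alike, the median was 0.125 (10 of 17 over 0.1), against -0.0238 for different numbers, and the labels do not say whether these came from 1 mouse. With the replicate number as a block and 4 surrogate variables 0 members were called in every contrast, and with 0 surrogate variables the block gave 1 in hippocampus TG_HFD/WT_HFD (Vgf -0.41, adjusted p = 0.00423). Across regions the block gave 9, 8, 8 and 8 members in WT_SD, WT_HFD, TG_SD and TG_HFD, Ntrk2 being lost in WT_HFD. The depth limits Ntf3 in brainstem and Ngfr in hippocampus, whose libraries held 1 to 13 and 12 to 28 counts.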
